A study of Mus musculus with 12 samples.

Results

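The genes described here were 46 interferon-stimulated and Schlafen genes, chosen by symbol from a list of known family and pathway members, and all 46 had a row among the 54446 genes of a raw count table (44 had at least 1 count). The table held RNA-seq of NIH3T3 cells, an established mouse embryonic fibroblast line, and of ΔN-VEGF cells, NIH3T3 cells from which the part of Vegfa that encodes N-VEGF, the amino-terminal extension of the long VEGF form, had been deleted. Each line was sampled in normoxia and in hypoxia, with 3 samples in each of the 4 groups and 12 in all, and the study asked what the loss of N-VEGF does to the transcriptome before and after hypoxic stress. Hypoxia lasted 16 h at less than 0.2% oxygen according to the methods. The wild type carried no edit, and the ΔN-VEGF cells were made with Cas9 and a donor cassette whose selection markers were later removed with a recombinase. The labels do not say which clone gave the RNA, so the deletion and the clone cannot be told apart, and they call the samples triplicates without naming separate cultures, so the p-values measure only the spread between these samples, which may be technical.

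Type I interferons signal through the receptor chains Ifnar1 and Ifnar2 and the kinases Jak1 and Tyk2 to a complex that holds Stat2 and Irf9 and binds the interferon-stimulated response element upstream of its targets. Interferon gamma signals through Ifngr1, Ifngr2, Jak1 and Jak2 to the gamma-activated site of its targets. The targets include sensors of foreign RNA, translation blockers, RNA-degrading systems and membrane-acting GTPases, and many fibroblasts keep a low level of them without added interferon. Schlafens are a gene family of mammals, in part interferon-responsive, whose members act on growth and on RNA.

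The response element was looked for in the promoters of RefSeq (build GRCm38.p6, 250 bases before to 50 bases after each start), which covered 35 of the 46 members. No promoter was in the table for Oas1b, Usp18, Parp9, Mx2, Rtp4, Iigp1, Parp14, Mx1, Oas2, Dhx58 and Ifi27. The core GAAANNGAAA, on either strand, was found in 20 of these 35 members (57.1%) and, counted in the same way by gene, in 3.99% of all 27025 genes with a promoter (3.44% of the 32851 promoters). The gamma-activated site TTCNNNGAA was in 8 members (22.9%) against 9.55% of all genes (8.3% of promoters), and 5 members (Bst2, Gbp7, Igtp, Irgm2 and Oas1a) had both, with shared bases in Bst2. A core used by the hypoxia-inducible factors, ACGTG or GCGTG, was in 13 members (37.1%) against 46.73% of all genes (43.77% of promoters). A match of letters is not a bound site. The stretches below show the interferon core, in capitals, with up to 30 bases on each side and only bases before the annotated start, for members whose levels are described further on.
Stat2, chr10:128270248-128270315, plus strand: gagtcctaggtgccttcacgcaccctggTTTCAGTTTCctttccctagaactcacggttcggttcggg
Ifit1, chr19:34640774-34640843, plus strand: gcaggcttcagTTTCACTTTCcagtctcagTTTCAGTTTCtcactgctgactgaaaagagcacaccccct
Isg15, chr4:156200845-156200914, minus strand: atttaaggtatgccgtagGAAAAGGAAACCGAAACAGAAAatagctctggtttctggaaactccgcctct
Irgm2, chr11:58214883-58214952, plus strand: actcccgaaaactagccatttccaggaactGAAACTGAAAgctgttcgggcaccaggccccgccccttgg
Igtp, chr11:58199492-58199555, plus strand: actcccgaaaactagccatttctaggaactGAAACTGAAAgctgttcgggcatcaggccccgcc
Bst2, chr8:71537557-71537626, minus strand: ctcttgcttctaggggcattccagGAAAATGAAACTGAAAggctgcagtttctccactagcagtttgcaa
Oas1a, chr5:120907526-120907569, minus strand: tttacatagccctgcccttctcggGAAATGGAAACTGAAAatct
Slfn9, chr11:82991836-82991905, minus strand: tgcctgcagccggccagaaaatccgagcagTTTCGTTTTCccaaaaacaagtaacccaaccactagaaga
In Stat2, Ifit1 and Slfn9 the capitals are the core's reverse complement, since the match lies on the strand opposite to the gene. None of the 8 stretches overlaps an exon of GENCODE M21. Of the 13 members with a promoter that were lower in wild-type hypoxia, 8 had the core, and of the other 22, 12 had it.

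Total counts per sample ranged from 30519052 to 43056690. Levels below are counts scaled to library size by the trimmed mean method (TMM), in the unit CPM, and differences are log2 fold changes with their standard error (SE) from an edgeR quasi-likelihood test over 14724 genes, called at a Benjamini-Hochberg adjusted p below 0.05. Only 32 of the 46 members had counts enough to be tested. A library that stood apart bears on every result: replicate 2 of wild-type normoxia correlated at 0.956 and 0.957 with its replicates across genes, against 0.996 between those, and replicate 2 of ΔN-VEGF normoxia stood apart less (0.986). Each comparison's counts, and part of the members' values below, are therefore also given without both of these samples, with 15083 genes tested. Ifit3b, Gbp7 and Slfn8 were under the count limit with all samples and passed it in this and most other fits to fewer samples through the normoxia samples in which they are high. In the comparisons described next, counts with samples left out are therefore given over the same 32 members. Of 8 fibroblast markers 7 stood above 1 CPM on average (Lum was near 0), and the defining leukocyte genes Ptprc, Cd3e, Adgre1 and Siglech and the epithelial gene Epcam were at or near 0 in every library. Cd68 stood at 2.84 to 6.68 CPM in every library, and Flt3 was at 0 in the normoxia samples and at 0.382 to 0.951 CPM in the hypoxia samples. The epithelial gene Cdh1 moved with the members, at 1.83, 0.534 and 1.91 CPM in wild-type normoxia and 0.284 to 0.892 in the other groups. Among leukocyte markers Csf1r was at 28.8 to 53.8 CPM in hypoxia against 0.845 to 9.03 in normoxia, and among endothelial markers Cdh5 reached 19.4 to 24.4 CPM in ΔN-VEGF hypoxia with Kdr near 0. The 9 leukocyte markers summed to 4.93 to 13.1 CPM in wild-type normoxia, 36 to 36.4 in wild-type hypoxia, 6.74 to 9.36 in ΔN-VEGF normoxia and 55.3 to 59.5 in ΔN-VEGF hypoxia, and to 2.87 to 7.11 over all samples without Csf1r. Their part in the results was not tested. In bulk RNA fewer cells that express a gene and less of its RNA per cell cannot be told apart. The wild-type normoxia samples serve as reference for more than 1 comparison, and so do the other groups. Vegfa stood at 34.2 to 86.2 CPM in normoxia and 272 to 437 CPM in hypoxia, and a gene-level count does not check a deletion inside the gene.

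Replicate 2 of wild-type normoxia differed from its replicates in the members too. In replicates 1 and 3 of wild-type normoxia 29 and 31 of the 32 tested members lay above their own mean over the 12 samples, and in replicate 2 only 7 did. The median of the members' log2 values, each centred on its own mean, was 1.02 and 0.98 in replicates 1 and 3 and -0.77 in replicate 2, below the 3 wild-type hypoxia samples (-0.42 to -0.31). In the ΔN-VEGF line the same median was 0.13, -0.06 and 0.23 in normoxia and lay between -0.2 and -0.11 in hypoxia. The members thus stood highest in 2 of the 3 wild-type normoxia samples, and Ifit2, Slfn5 and Slfn9 went against the rest by standing highest in replicate 2 among the wild-type samples.

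**Figure D1:**
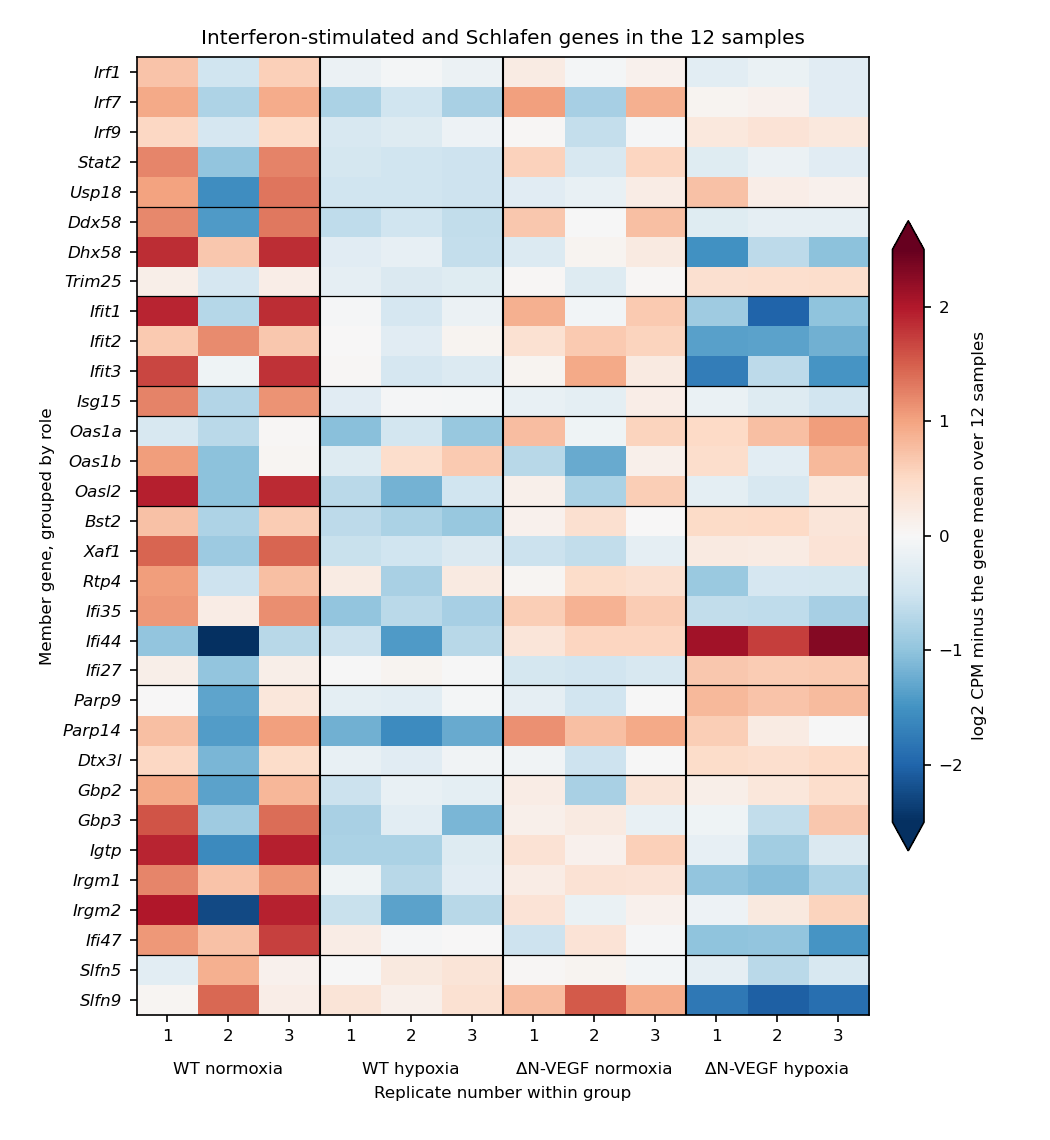
Log2 CPM of the 32 tested members (rows, grouped by role) in the 12 samples (columns, by group and replicate number), each minus the gene's mean over the samples; red is above and blue below that mean. Replicates 1 and 3 of wild-type normoxia are red for most genes and replicate 2 is blue for most, and Ifi44 and Slfn9 stand out in ΔN-VEGF hypoxia, the former red and the latter blue.

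In wild-type cells the members called after hypoxia were all lower. Of the 32 tested members 15 were lower after hypoxia and 0 higher: Stat2, Dhx58, Ifit1, Ifit2, Ifit3, Oasl2, Bst2, Xaf1, Ifi35, Parp14, Gbp3, Igtp, Irgm1, Irgm2 and Ifi47. Over all tested genes 18.3% were lower and 18.2% higher. The members' median log2 fold change was -1.21, against -0.07 for all genes. At an unadjusted p below 0.05 edgeR had 0 members higher and 19 lower (22.1% and 24% of all genes), and DESeq2 called 0 higher and 17 lower (19.7% and 20.8%). Only Dhx58, Ifit2, Ifi35 and Irgm1 kept their call when each sample was left out in turn. The count fell to 6 without normoxia replicate 1 (17.5% of all genes lower), to 5 without normoxia replicate 3 (17.7%) and to 7, 5 and 5 without hypoxia replicates 1, 2 and 3 (12.3%, 12.8% and 12.2%). These counts of 5 and 6 lay near the shares of all genes. The count rose to 25 without normoxia replicate 2 (26.9% of all genes). A fit to these 6 samples alone called 5 of 30 tested members lower (11.1% of all genes), and one with the replicate number as a block as well called 2 (5.09%). Without both normoxia samples numbered 2, 26 of the 32 members were lower and 0 higher (background 32.5% lower and 32.8% higher), with a median of -1.48 against 0.

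The ΔN-VEGF line gave a mixed picture. After hypoxia 8 of its 32 members were lower (Dhx58, Ifit1, Ifit2, Ifit3, Ifi35, Irgm1, Ifi47 and Slfn9) and 4 were higher (Trim25, Ifi44, Ifi27 and Parp9). These shares, 25% and 12.5%, were no larger than those of all genes (26.4% lower, 26.9% higher), and the median was -0.29 against -0.01. Scaling by total counts gave 11 lower and 2 higher (44.5% and 15.3% of all genes), with the median of all genes at -0.41. Without both normoxia samples numbered 2, 14 of the 32 were lower and 8 higher (background 36% and 35.4%). The lower count was 14 without wild-type normoxia replicate 2 (34.3% of all genes), 5 without ΔN-VEGF normoxia replicate 2 (22.5%), and 5 and 4 without ΔN-VEGF hypoxia replicates 1 and 3 (20.4% and 20.9%). The higher count was 7 without wild-type normoxia replicate 2 (32.8%) and 2 without ΔN-VEGF normoxia replicate 2 (24.5%). Ifit2, Ifi35, Irgm1, Slfn9, Ifi44 and Ifi27 kept their call in each of these fits.

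Of the 32 members, 7 were lower in hypoxia in both lines: Dhx58, Ifit1, Ifit2, Ifit3, Ifi35, Irgm1 and Ifi47. Over all tested genes 14.5% were lower in both lines. A further 8 (Stat2, Oasl2, Bst2, Xaf1, Parp14, Gbp3, Igtp and Irgm2) were lower in the wild type and not called lower in ΔN-VEGF, a pattern of 3.86% of all genes. None of these 8 kept its wild-type call when each sample was left out in turn. A call in 1 line without a call in the other is not a test of the difference. The test of the difference between the responses called only Ifit2 and Slfn9 (2 lower in ΔN-VEGF, 0 higher, against 1.15% and 2.21% of all genes). At an unadjusted p below 0.05 edgeR had 2 members with a more negative and 7 with a more positive response in ΔN-VEGF (8.34% and 12.7% of all genes), and DESeq2 called 2 and 4 (3.32% and 7.39%). The median difference was 0.89 log2 units, against 0.03 for all genes. Without both normoxia samples numbered 2, 22 of the 32 members had a more positive response in ΔN-VEGF and 2 a more negative one (background 25.8% and 27%), and the median was 1.03 against 0. The count of more positive responses was 21 without wild-type normoxia replicate 2 alone (21.4% of all genes), and neither Ifit2 nor Slfn9 kept its call when each sample was left out in turn. The lower count was then 0 without hypoxia replicate 1 or 3 of the wild type, any ΔN-VEGF hypoxia replicate or ΔN-VEGF normoxia replicate 3, and 1 without wild-type hypoxia replicate 2, wild-type normoxia replicate 1 or 3 or ΔN-VEGF normoxia replicate 1 or 2 (0.151% to 1.83% of all genes over these fits). With a replicate block the edgeR test called Trim25 higher (adjusted p = 0.048) and Slfn9 lower (0.02), and Ifit2 missed the threshold (0.061).

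**Figure D2:**
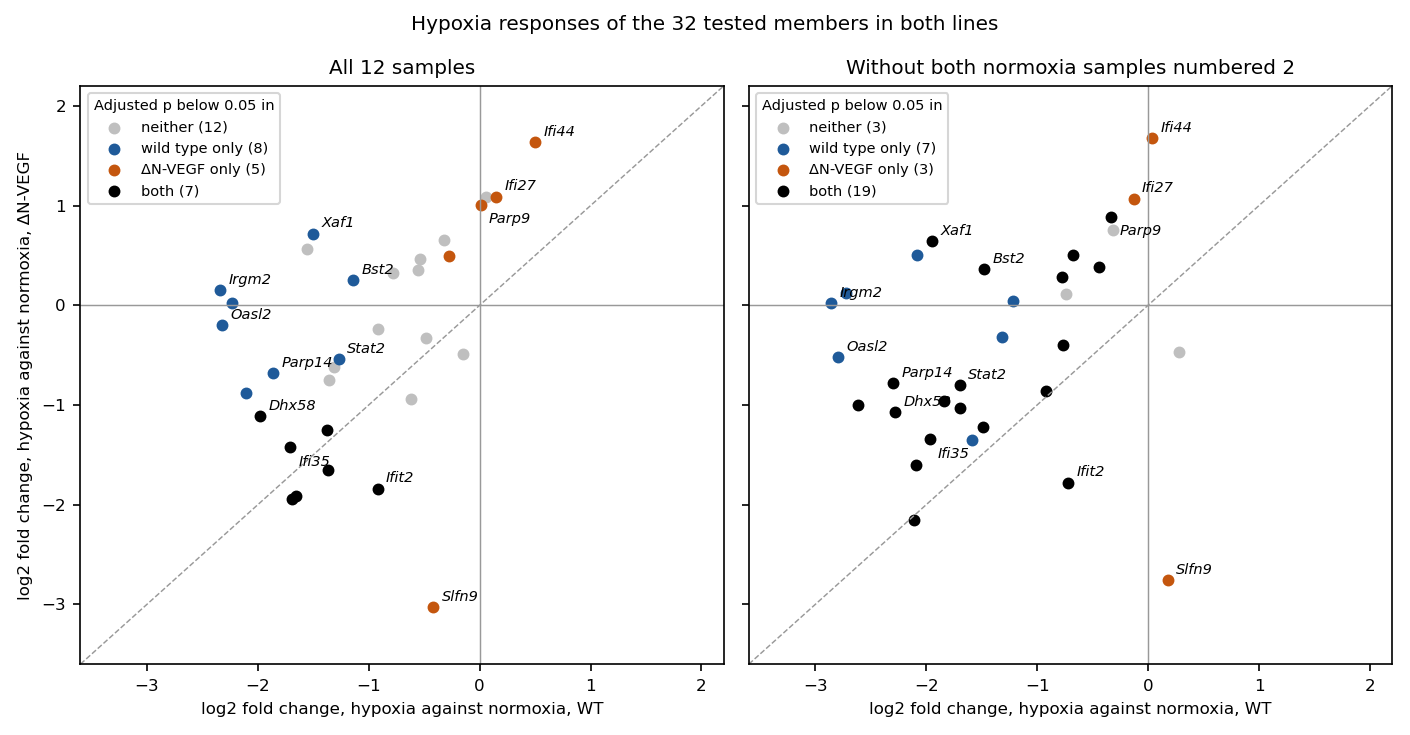
Log2 fold change after hypoxia in wild-type cells (horizontal) and in ΔN-VEGF cells (vertical) for the 32 members tested with all 12 samples, with the dashed line marking equal responses; the right panel leaves out both normoxia samples numbered 2. Colours show where the adjusted p was below 0.05. The points called in both lines number 7 on the left, all lower in both (14.5% of all genes), and 19 on the right. Of those 19, 13 were lower in both and 6 (Irf9, Trim25, Bst2, Xaf1, Parp9 and Dtx3l) lower in the wild type and higher in ΔN-VEGF. The shares of all genes with these joint calls were not counted for the right panel, so the 13 and 6 cannot be set against a background. Single calls there covered 32.5% of all genes (lower, wild type), 36% (lower, ΔN-VEGF) and 35.4% (higher, ΔN-VEGF). Slfn9 and Ifit2 lie below the dashed line in both panels.

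Few members passed the threshold between the lines in normoxia. Dhx58, Irgm1 and Ifi47 were lower in ΔN-VEGF cells and 0 of 32 members were higher (all genes 2.97% lower, 1.39% higher), with a median of -0.4 against -0.03. At an unadjusted p below 0.05 edgeR had 6 lower and 2 higher (12.8% and 6.17% of all genes), and DESeq2 called 4 lower and 1 higher (6.76% and 3.14%). Same-numbered normoxia samples of the lines deviated together, as replicates 1 and 3 did across numbers, and in edgeR with the replicate number as a block Dhx58 (adjusted p = 0.044) and Irgm1 (0.047) remained lower, Ifi47 did not pass (0.069) and Ifi44 was higher (0.044). With the block and these 6 samples alone, 0 members passed in either direction (0.00718% of all genes higher and 0% lower). The 3 calls became 22 without wild-type normoxia replicate 2 (23.2% of all genes), 0 without wild-type normoxia replicate 1 or 3 or ΔN-VEGF normoxia replicate 1 or 3, and 1 without ΔN-VEGF normoxia replicate 2, wild-type hypoxia replicate 1 or 3 or any ΔN-VEGF hypoxia replicate (0.726% to 2.59% over these fits), while the higher count became 2 without wild-type normoxia replicate 2 (25.7%). Without both samples numbered 2, 23 of the 32 members were lower in ΔN-VEGF normoxia and 3 (Oas1a, Ifi44 and Slfn9) higher (background 25.8% and 27.8%).

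Between the lines in hypoxia the members split in direction. Trim25, Oas1a, Bst2, Ifi44, Parp9 and Parp14 were higher in ΔN-VEGF hypoxia than in wild-type hypoxia, and Ifit2, Irgm1, Ifi47 and Slfn9 were lower. These 6 and 4 calls compare with 10.8% higher and 9.36% lower over all genes, and the median was 0.45 against -0.01. Normoxia samples enter this contrast only through the shared spread, the filter and the scaling. A fit to the 6 hypoxia samples alone called 15 higher and 6 lower of 29 tested members, against 27.9% and 29.1% of all genes. Of the 32 members 15 were higher and 7 lower without both normoxia samples numbered 2 (background 27.5% and 28.3%). Scaling by total counts gave 2 higher and 4 lower (4.57% and 22.2% of all genes). The higher count was 11 without wild-type normoxia replicate 2 (21.2%) and 3 without any wild-type hypoxia replicate or ΔN-VEGF hypoxia replicate 1 or 2 (5.44% to 7.18%). The lower count was 2 without hypoxia replicate 1 or 3 or normoxia replicate 1 of the wild type, any ΔN-VEGF hypoxia replicate or ΔN-VEGF normoxia replicate 3 (4.49% to 9.36%). Trim25, Oas1a, Ifi44, Ifit2 and Slfn9 kept their call whichever sample was left out.

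**Figure D3:**
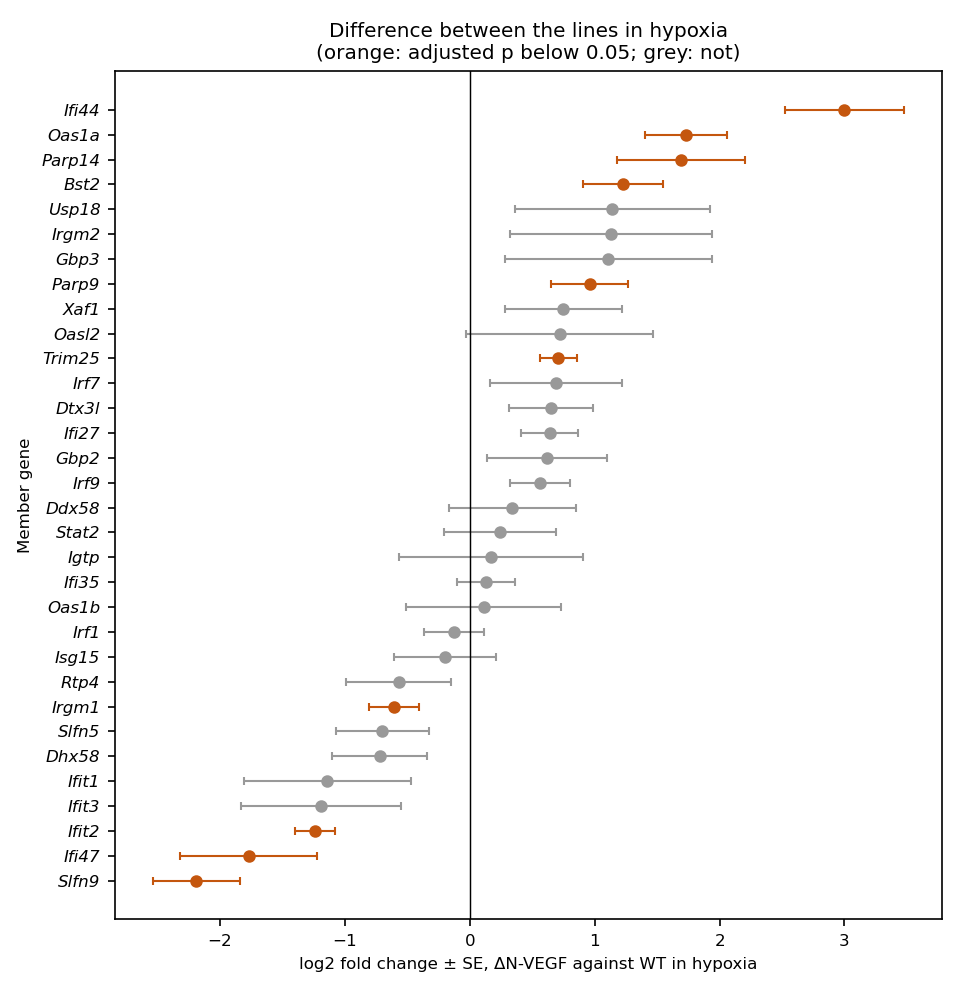
Log2 fold change ± SE of the 32 tested members in ΔN-VEGF hypoxia against wild-type hypoxia, sorted by size; orange points had an adjusted p below 0.05 and grey points did not. Ifi44 is at the top with 3 and Slfn9 at the bottom with -2.19.

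Among the 5 signalling members Stat2, a part of the type I interferon complex, was the most abundant in wild-type normoxia with Irf1. Stat2 stood at 66.1, 14.5 and 67.1 CPM in wild-type normoxia, 20.9, 20.3 and 20 in wild-type hypoxia, 42.6, 21.6 and 41.4 in ΔN-VEGF normoxia and 23.2, 25.8 and 23.4 in ΔN-VEGF hypoxia. The hypoxia samples of both lines lay between 20 and 25.8 CPM, above replicate 2 of wild-type normoxia. Stat2 fell in wild-type hypoxia by 1.27 ± 0.45 log2 units (adjusted p = 0.0466), a call that 13 of 21 other settings did not keep, and by 1.7 ± 0.06 without both normoxia samples numbered 2 (3.74e-15). Its change in ΔN-VEGF was -0.54 ± 0.45 (0.327), and -0.8 ± 0.06 without those samples (4.96e-10).

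Irf9, the DNA-binding part of that complex, stood at 9.86, 5.16 and 9.71 CPM in wild-type normoxia, 5.17, 5.51 and 6.32 in wild-type hypoxia, 6.98, 4.52 and 6.76 in ΔN-VEGF normoxia and 8.21, 8.72 and 8.22 in ΔN-VEGF hypoxia. All 3 ΔN-VEGF hypoxia samples lay above all 3 wild-type hypoxia samples, and the difference was 0.56 ± 0.24 log2 units (0.129). Without both normoxia samples numbered 2 it was 0.56 ± 0.09 (3e-05), and Irf9 then fell in the wild type (-0.78 ± 0.09, 4.09e-07) and rose in ΔN-VEGF (0.28 ± 0.1, 0.0141). Irf7, the factor that amplifies interferon transcription, stood at 2.9, 0.836 and 2.85 CPM in wild-type normoxia, 0.831, 1.03 and 0.815 in wild-type hypoxia, 3.06, 0.805 and 2.77 in ΔN-VEGF normoxia and 1.54, 1.58 and 1.2 in ΔN-VEGF hypoxia. Replicate 2 was low in normoxia in both lines for this gene. It had no call with all samples (-1.31 ± 0.52 in wild-type hypoxia, 0.0713) and -1.7 ± 0.17 without both samples numbered 2 (3.14e-08). Irf1, which also binds these elements, ranged from 18.1 to 42.2 CPM, and Usp18, which removes Isg15 from proteins and damps the receptor, from 0.0232 to 0.501 CPM. Neither had a call with all samples. Irf1 fell in both lines without both samples numbered 2 (-0.77 ± 0.07 in the wild type, 3.35e-09, and -0.4 ± 0.07 in ΔN-VEGF, 3.09e-05), and Usp18 fell in the wild type (-2.08 ± 0.42, 0.00023).

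The RNA sensors split. Ddx58, which encodes RIG-I, stood at 30, 4.85 and 32.5 CPM in wild-type normoxia, 8.44, 9.21 and 8.59 in wild-type hypoxia, 20.8, 12.9 and 22.1 in ΔN-VEGF normoxia and 10.7, 11.3 and 11.3 in ΔN-VEGF hypoxia. Apart from replicate 2 the normoxia samples lay above the hypoxia samples of their line, and in ΔN-VEGF replicate 2 did as well. Its log2 fold change in wild-type hypoxia was -1.36 ± 0.51 (0.0558), and -1.84 ± 0.07 without both samples numbered 2 (1.74e-14). Dhx58, which encodes the regulator LGP2, stood at 3.72, 1.63 and 3.7 CPM in wild-type normoxia, 0.805, 0.856 and 0.637 in wild-type hypoxia, 0.775, 1.04 and 1.18 in ΔN-VEGF normoxia and 0.313, 0.611 and 0.46 in ΔN-VEGF hypoxia. Every wild-type normoxia sample, replicate 2 included, lay above every other sample. Dhx58 fell by 1.98 ± 0.34 in wild-type hypoxia (0.00103) and by 1.11 ± 0.37 in ΔN-VEGF hypoxia (0.0273), and it was 1.6 ± 0.33 log2 units lower in ΔN-VEGF normoxia (-1.6, 0.0241). These values were -2.28 ± 0.19, -1.07 ± 0.29 and -1.93 ± 0.2 without both samples numbered 2. Trim25, the ubiquitin ligase that activates RIG-I, went the other way in ΔN-VEGF cells, from 54.9 to 70.8 CPM in normoxia to 90.9 to 93.2 in hypoxia. It rose there by 0.49 ± 0.15 (0.0181) and stood 0.71 ± 0.15 above wild-type hypoxia (0.00876), where it ranged from 53.9 to 59.1 CPM. With total counts as the scale neither call held (adjusted p = 0.73 and 0.0875). When both samples numbered 2 were left out Trim25 rose by 0.38 ± 0.06 in ΔN-VEGF (5.35e-06) and fell by 0.44 ± 0.06 in the wild type (8e-07). Ifih1, which encodes the sensor MDA5, had 0 counts in all 12 samples.

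The Ifit genes, whose products bind foreign RNA and block its translation, lie together on chromosome 19, and the 3 tested of 4 (Ifit1, Ifit2 and Ifit3) fell in both lines, as 14.5% of all genes did. Ifit2 (chr19:34550694-34576419, GRCm38.p6) stood at 23.1, 33.1 and 23.5 CPM in wild-type normoxia, 14.8, 12 and 15.3 in wild-type hypoxia, 19.2, 23.2 and 21.5 in ΔN-VEGF normoxia and 5.7, 5.79 and 6.35 in ΔN-VEGF hypoxia. The 4 groups did not overlap between normoxia and hypoxia, and the ΔN-VEGF hypoxia samples were the lowest. Ifit2 fell by 0.92 ± 0.16 in the wild type (0.000888) and by 1.84 ± 0.16 in ΔN-VEGF (4.62e-06), a difference of -0.92 ± 0.22 (0.0495), which was -1.06 ± 0.13 without both normoxia samples numbered 2 (1.63e-06). In hypoxia Ifit2 was 2.36-fold lower in ΔN-VEGF than in the wild type (log2 -1.24 ± 0.16, 0.000707).

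Ifit1 stood at 3.13, 0.464 and 2.99 CPM in wild-type normoxia, 0.779, 0.582 and 0.713 in wild-type hypoxia, 1.51, 0.758 and 1.27 in ΔN-VEGF normoxia and 0.407, 0.161 and 0.368 in ΔN-VEGF hypoxia. It fell by 1.66 ± 0.58 in the wild type (0.0434) and by 1.91 ± 0.65 in ΔN-VEGF (0.028), the former with replicate 2 of normoxia below all hypoxia samples. Ifit3 stood at 1.48, 0.395 and 1.64 CPM in wild-type normoxia, 0.441, 0.308 and 0.331 in wild-type hypoxia, 0.452, 0.876 and 0.515 in ΔN-VEGF normoxia and 0.094, 0.257 and 0.123 in ΔN-VEGF hypoxia. Within ΔN-VEGF every normoxia sample lay above every hypoxia sample. Ifit3 fell by 1.69 ± 0.51 (0.0229) and by 1.94 ± 0.6 (0.0185), and both Ifit1 and Ifit3 lost calls when single samples were left out. Leaving out both samples numbered 2, Ifit1 fell by 2.11 ± 0.2 and 2.15 ± 0.28, and Ifit3 by 2.09 ± 0.26 and 1.6 ± 0.41, in the wild type and ΔN-VEGF. Ifit3 and Ifit3b are near copies, with 99.1% identical coding bases and 39.1% of the 80-base windows of Ifit3 found in Ifit3b, so their counts are uncertain. Ifit3b itself was under the count limit with 31, 7 and 35 counts in wild-type normoxia and 1 to 8 counts in the other samples.

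Isg15, the ubiquitin-like modifier, stood at 4.88, 1.21 and 4.49 CPM in wild-type normoxia, 1.66, 1.99 and 1.96 in wild-type hypoxia, 1.79, 1.71 and 2.28 in ΔN-VEGF normoxia and 1.82, 1.61 and 1.44 in ΔN-VEGF hypoxia. It was high in replicates 1 and 3 of wild-type normoxia alone. With all samples it had no call (-0.92 ± 0.4 in wild-type hypoxia, 0.0945). Without both samples numbered 2 it was -1.32 ± 0.14 in wild-type hypoxia (6.92e-08) and -1.2 ± 0.15 in ΔN-VEGF normoxia against wild-type normoxia (1.4e-06).

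Oligoadenylate synthetases make the messenger that switches on RNase L. Oasl2, of the same family, stood at 2.17, 0.232 and 2.06 CPM in wild-type normoxia, 0.311, 0.205 and 0.357 in wild-type hypoxia, 0.581, 0.284 and 0.833 in ΔN-VEGF normoxia and 0.439, 0.386 and 0.644 in ΔN-VEGF hypoxia. Its fall in wild-type hypoxia was 5.01-fold (log2 -2.32 ± 0.69, 0.0214), and 6.98-fold without both samples numbered 2 (-2.8 ± 0.26, 8.12e-09). The ΔN-VEGF samples of both conditions overlapped. In hypoxia the Oasl2 samples of the lines did not overlap, with a difference that was not called (0.72 ± 0.75, 0.551). Oas1a was the member of this class called between the lines in hypoxia, at 0.26 to 0.411 CPM in the wild type and 0.846 to 1.26 in ΔN-VEGF. That difference was 1.73 ± 0.33 log2 units (0.00519) and kept its call under all 21 other settings, though 46.1% of the 80-base windows of Oas1a are shared with Oas1g. Oas1b had no call (0.0711 to 0.548 CPM), and Oas2, Oas3 and Oasl1 had 27 to 28 counts each over the 12 samples.

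Among the antiviral effectors, Ifi35, a partner of Nmi in cytokine signalling, had a fall that no setting removed. It stood at 12.1, 6.48 and 12.8 CPM in wild-type normoxia, 2.86, 3.53 and 3.19 in wild-type hypoxia, 8.74, 10.4 and 8.89 in ΔN-VEGF normoxia and 3.7, 3.63 and 3.16 in ΔN-VEGF hypoxia. All normoxia samples lay above all hypoxia samples. Ifi35 fell by 1.71 ± 0.23 in the wild type (0.000185) and by 1.42 ± 0.23 in ΔN-VEGF (0.000382), and the difference between the responses was 0.29 ± 0.32 (0.637). The falls were 1.97 ± 0.1 and 1.34 ± 0.11 without both samples numbered 2 (log2 -1.97 and -1.34), with a difference of 0.63 ± 0.15 (0.00169). A share of 16.8% of its exonic bases lies opposite Gm11626, and the library kit does not mark strand.

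Bst2, which encodes tetherin, a protein that holds budding virus at the cell surface, stood at 8.42, 2.95 and 7.94 CPM in wild-type normoxia, 3.22, 2.91 and 2.62 in wild-type hypoxia, 5.47, 6.68 and 5.12 in ΔN-VEGF normoxia and 7.05, 7.17 and 6.29 in ΔN-VEGF hypoxia. The ΔN-VEGF hypoxia samples lay above all wild-type hypoxia samples, and within ΔN-VEGF the conditions overlapped. Bst2 fell by 1.14 ± 0.32 in wild-type hypoxia (0.0155) and changed by 0.25 ± 0.31 in ΔN-VEGF (0.522). The difference of the responses was 1.39 ± 0.44 (0.106), and 1.84 ± 0.15 without both samples numbered 2 (4.5e-09). In hypoxia Bst2 was 2.34-fold higher in ΔN-VEGF (1.23 ± 0.32, 0.0206).

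Xaf1, a pro-apoptotic antagonist of XIAP, stood at 7.6, 1.44 and 7.61 CPM in wild-type normoxia, 1.84, 1.92 and 2.11 in wild-type hypoxia, 1.87, 1.78 and 2.35 in ΔN-VEGF normoxia and 3.23, 3.18 and 3.46 in ΔN-VEGF hypoxia. ΔN-VEGF normoxia sat at the level of wild-type hypoxia, and ΔN-VEGF hypoxia above both. Xaf1 fell by 1.5 ± 0.46 in the wild type (0.0253) and was 0.72 ± 0.46 in ΔN-VEGF (0.213). Without both samples numbered 2 it fell by 1.95 ± 0.12 in the wild type (1.35e-11), rose by 0.64 ± 0.14 in ΔN-VEGF (0.00036) and was lower by 1.84 ± 0.13 in ΔN-VEGF normoxia (-1.84, 4.74e-10).

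Ifi44 was, of the 32 tested members, the one with the largest difference between the lines in hypoxia. It stood at 0.388, 0.0464 and 0.482 CPM in wild-type normoxia, 0.545, 0.274 and 0.484 in wild-type hypoxia, 1.01, 1.21 and 1.2 in ΔN-VEGF normoxia and 3.63, 2.8 and 4.2 in ΔN-VEGF hypoxia. Every ΔN-VEGF sample lay above every wild-type sample, and the ΔN-VEGF hypoxia samples lay above the ΔN-VEGF normoxia samples. In hypoxia it was 7.99-fold higher in ΔN-VEGF (3 ± 0.48, 0.00202), and it rose 3.11-fold in ΔN-VEGF hypoxia (1.64 ± 0.44, 0.00866). In wild-type hypoxia its change was 0.5 ± 0.53 (0.491), and the difference of the responses was 1.13 ± 0.69 (0.38). That difference was 1.64 ± 0.41 without both samples numbered 2 (0.00228), and Ifi44 was 1.33 ± 0.3 higher in ΔN-VEGF normoxia (0.000957).

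Ifi27, which encodes a small mitochondrial and nuclear membrane protein, stood at 22.3, 10.1 and 22.1 CPM in wild-type normoxia, 19.8, 20.9 and 19.8 in wild-type hypoxia, 14.8, 14.4 and 15.1 in ΔN-VEGF normoxia and 31.9, 31.2 and 31.4 in ΔN-VEGF hypoxia. The ΔN-VEGF hypoxia samples were the highest of the 12. Ifi27 rose there by 1.09 ± 0.23 (0.00219), with a change of 0.15 ± 0.23 in the wild type (0.639). The positive wild-type value rests on normoxia replicate 2 (10.1 CPM), since replicates 1 and 3 (22.3 and 22.1) lay above all wild-type hypoxia samples. The difference of the responses, 0.94 ± 0.32, had an adjusted p of 0.129 with all samples and was 1.2 ± 0.09 without both samples numbered 2 (1.41e-09). Rtp4 ranged from 0.595 to 2.49 CPM without a call with all samples, and without both samples numbered 2 it fell in the wild type (-0.92 ± 0.23, 0.00135) and in ΔN-VEGF (-0.86 ± 0.28, 0.00907). The effectors Mx2, Rsad2 (viperin) and Cmpk2 had 11 to 19 counts each over all samples, and Mx1 had 0.

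**Figure D4:**
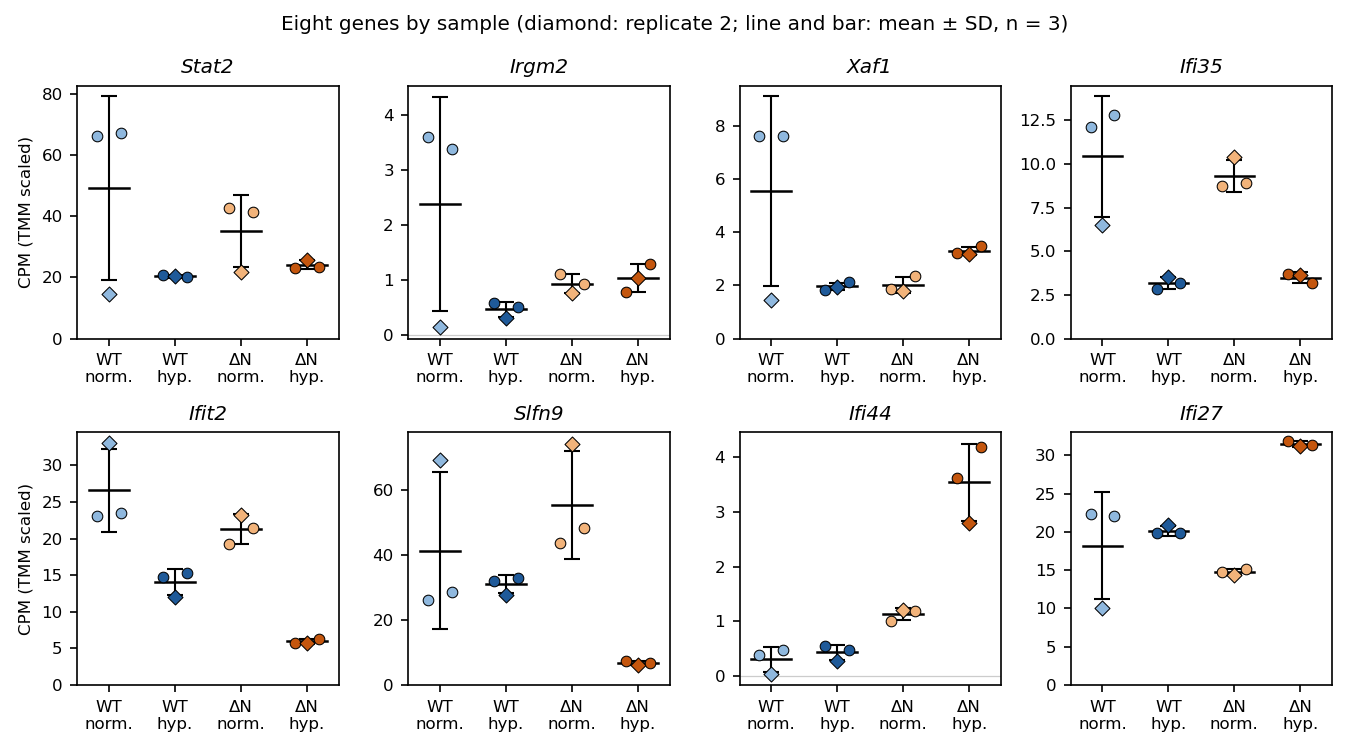
CPM in each sample for 8 members, by group (WT, wild type; ΔN, ΔN-VEGF; norm., normoxia; hyp., hypoxia), with replicate 2 as a diamond and the mean ± SD (n = 3) as a line and bar; each panel has its own linear scale. Replicate 2 of wild-type normoxia lies far below its replicates for Stat2, Irgm2 and Xaf1 and above them for Ifit2 and Slfn9.

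Parp9 and Dtx3l share a promoter region head to head and encode an ADP-ribosylating complex, and 9.4% and 8% of their exonic bases lie opposite each other. Parp9 stood at 10.2, 4.02 and 12.3 CPM in wild-type normoxia, 8.57, 8.42 and 9.81 in wild-type hypoxia, 8.64, 7.25 and 10.1 in ΔN-VEGF normoxia and 17.8, 16.8 and 17.7 in ΔN-VEGF hypoxia. Dtx3l stood at 12.2, 3.78 and 11.7, then 7.37, 6.92 and 7.9, then 7.97, 5.85 and 8.36, and 11.6, 11.3 and 11.9 CPM in the same order of groups. Both were higher in each ΔN-VEGF hypoxia sample than in any ΔN-VEGF normoxia sample. Parp9 rose in ΔN-VEGF hypoxia by 1.01 ± 0.31 (0.0176), and Dtx3l changed by 0.65 ± 0.34 (0.125), or 0.5 ± 0.09 without both samples numbered 2 (2.8e-05). In wild-type hypoxia Parp9 changed by 0.01 ± 0.31 (0.98), and by -0.33 ± 0.1 without those samples (0.00667). The rise of Parp9 in ΔN-VEGF lost its call with total counts as the scale and without ΔN-VEGF normoxia replicate 2 (highest adjusted p 0.162). Its difference between the lines in hypoxia (log2 0.96, 0.0496) was kept in 8 of 21 other settings.

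Parp14, of the same ADP-ribosyltransferase family, had its own pattern. It stood at 2.97, 0.627 and 3.58 CPM in wild-type normoxia, 0.727, 0.548 and 0.688 in wild-type hypoxia, 3.85, 2.96 and 3.38 in ΔN-VEGF normoxia and 2.66, 1.99 and 1.72 in ΔN-VEGF hypoxia. Wild-type hypoxia and replicate 2 of wild-type normoxia were low, and every ΔN-VEGF sample was above them. Parp14 fell 3.64-fold in wild-type hypoxia (-1.86 ± 0.5, 0.0133), changed by -0.68 ± 0.46 in ΔN-VEGF (0.236) and was 3.22-fold higher in ΔN-VEGF hypoxia than in wild-type hypoxia (1.69 ± 0.51, 0.0384). The same differences were -2.3 ± 0.2, -0.78 ± 0.17 (0.000303) and 1.67 ± 0.21 without both samples numbered 2. Parp12 had 27 counts over all samples.

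The GTPases, which act on the vacuoles of intracellular microbes, had 5 of 6 tested members lower in wild-type hypoxia (18.3% of all genes) and 2 of 6 in ΔN-VEGF hypoxia (26.4%). Of the 5, only Irgm1 kept its call when each sample was left out in turn. Irgm2 (chr11:58199618-58222782) stood at 3.61, 0.139 and 3.39 CPM in wild-type normoxia, 0.571, 0.308 and 0.51 in wild-type hypoxia, 1.1, 0.758 and 0.931 in ΔN-VEGF normoxia and 0.783, 1.03 and 1.29 in ΔN-VEGF hypoxia. Replicates 1 and 3 of wild-type normoxia were above and replicate 2 below all the other samples. Irgm2 fell 5.06-fold in wild-type hypoxia (-2.34 ± 0.78, 0.0364) and 7.27-fold without both samples numbered 2 (-2.86 ± 0.21, 3e-10), with 0.15 ± 0.75 (0.882) and 0.02 ± 0.24 (0.956) in ΔN-VEGF. The difference of the responses was 2.49 ± 1.08 (0.218), and 2.88 ± 0.33 without those samples (3.99e-07).

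Igtp, its neighbour (chr11:58199556-58207591), shares 8% of its exonic bases with the Irgm2 gene model. It stood at 3.15, 0.232 and 3.22 CPM in wild-type normoxia, 0.441, 0.445 and 0.637 in wild-type hypoxia, 1.06, 0.876 and 1.25 in ΔN-VEGF normoxia and 0.689, 0.418 and 0.613 in ΔN-VEGF hypoxia. In ΔN-VEGF all normoxia samples lay above all hypoxia samples. Igtp fell by 2.11 ± 0.68 in the wild type (0.0322) and changed by -0.88 ± 0.69 in ΔN-VEGF (0.307). Its changes were -2.62 ± 0.2 and -1 ± 0.25 (0.00122) without both samples numbered 2. Irgm1, a regulator of the other family members, stood at 8.51, 5.99 and 7.9 CPM in wild-type normoxia, 3.37, 2.23 and 2.98 in wild-type hypoxia, 4.13, 4.69 and 4.63 in ΔN-VEGF normoxia and 1.82, 1.7 and 2.12 in ΔN-VEGF hypoxia. Its 4 groups did not overlap, replicate 2 of wild-type normoxia included. Irgm1 fell by 1.38 ± 0.19 (0.000204) and by 1.25 ± 0.19 (0.000278), with a difference of 0.13 ± 0.27 (0.822), and it was lower in ΔN-VEGF than in the wild type in normoxia (-0.74 ± 0.18, 0.0488) and in hypoxia (-0.61 ± 0.2, 0.0496), calls which 14 of 21 other settings did not keep in either condition. Without both samples numbered 2 it fell by 1.49 ± 0.13 in the wild type and by 1.22 ± 0.16 in ΔN-VEGF.

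Gbp2, a guanylate-binding protein gene, stood at 5.82, 1.16 and 5.37 CPM in wild-type normoxia, 2.05, 2.64 and 2.52 in wild-type hypoxia, 3.42, 1.71 and 3.77 in ΔN-VEGF normoxia and 3.32, 3.67 and 4.11 in ΔN-VEGF hypoxia. It had no call with all samples (-0.78 ± 0.48 in wild-type hypoxia, 0.227) and -1.22 ± 0.13 without both samples numbered 2 (5.9e-08). Gbp3 fell in wild-type hypoxia from a range of 0.0697 to 0.616 CPM to 0.051 to 0.137 (-2.23 ± 0.73, 0.0325). Ifi47 fell in the wild type from 0.325 to 0.694 CPM to 0.171 to 0.208 (-1.37 ± 0.37, 0.0145) and in ΔN-VEGF from 0.108 to 0.237 CPM to 0.0307 to 0.0643 (-1.65 ± 0.54, 0.0242). These levels are near the floor. Gbp3 had 3, 4 and 2 counts in wild-type hypoxia, and Ifi47 had 5, 10 and 7 in ΔN-VEGF normoxia and 2, 2 and 1 in ΔN-VEGF hypoxia. DESeq2 did not keep the ΔN-VEGF call of Ifi47. Without both samples numbered 2 Gbp3 fell by 2.72 ± 0.46 and Ifi47 by 1.59 ± 0.36 in the wild type, and the change of Ifi47 in ΔN-VEGF was no longer called (-1.35 ± 0.68, 0.0843). Gbp7 had 11, 0 and 13 counts in wild-type normoxia, 3, 2 and 1 in ΔN-VEGF normoxia and 0 in all 6 hypoxia samples, and Iigp1 had 27 counts in all.

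The Schlafens are neighbours on chromosome 11, and Slfn9 was the one with a high level. Slfn9 (chr11:82978390-82991830, minus strand) stood at 26.2, 69.2 and 28.7 CPM in wild-type normoxia, 32.1, 27.8 and 33 in wild-type hypoxia, 43.6, 74.3 and 48.4 in ΔN-VEGF normoxia and 7.39, 6.18 and 6.84 in ΔN-VEGF hypoxia. The 3 ΔN-VEGF hypoxia samples lay far below all the other 9, and replicate 2 was high in normoxia in both lines. Slfn9 fell 8.14-fold in ΔN-VEGF hypoxia (-3.03 ± 0.36, 4.15e-05) and changed by -0.42 ± 0.33 in wild-type hypoxia (0.35). The negative wild-type value rests on normoxia replicate 2 (69.2 CPM). Replicates 1 and 3 (26.2 and 28.7 CPM) were on average below the wild-type hypoxia samples (27.8 to 33 CPM). Without both samples numbered 2 Slfn9 had no call in wild-type hypoxia and was still called lower in ΔN-VEGF hypoxia. The difference of the responses was -2.61 ± 0.48 (0.0183), and -2.94 ± 0.12 without both samples numbered 2 (2.29e-13). This test passed the threshold in 14 of 20 other settings, with an adjusted p of at most 0.0681.

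Slfn8 lies beside Slfn9, has 92.7% identical coding bases and shares 6.5% of its 80-base windows with other genes (Slfn10-ps and Slfn9). It did not follow Slfn9: it had 27, 1 and 26 counts in wild-type normoxia, 2, 1 and 1 in wild-type hypoxia, 6, 3 and 7 in ΔN-VEGF normoxia and 2, 3 and 5 in ΔN-VEGF hypoxia. Replicates 1 and 3 of wild-type normoxia held most of its counts. It was under the count limit with all samples. Slfn5, on the other side of Slfn9, ranged from 0.193 to 0.673 CPM without a call in the 5 comparisons, and Slfn2 had 5 counts in all. Of the 5 other Schlafens, Slfn3 alone was tested. It stood at 1.05, 2.28 and 1.37 CPM in wild-type normoxia, 0.727, 0.925 and 0.994 in wild-type hypoxia, 1.38, 2.2 and 1.59 in ΔN-VEGF normoxia and 0.533, 0.483 and 0.705 in ΔN-VEGF hypoxia, and it fell in ΔN-VEGF (-1.58 ± 0.33, 0.00187) with -0.82 ± 0.31 in the wild type (0.0581).

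Per kilobase of exonic length the members spanned a wide range of levels. In wild-type normoxia replicates 1 and 3 the highest were Ifi27 (15.1 CPM per kilobase), Trim25 (13.3), Stat2 (11.2), Irf1 (10.2) and Bst2 (9.06). Irgm2 stood at 0.949, Xaf1 at 1.62 and Slfn9 at 4.61 on the same scale. Over all 3 samples of wild-type normoxia Ifi27 stood at 12.4, Trim25 at 11.9, Irf1 at 8.32, Stat2 at 8.3 and Bst2 at 7.13. Irgm2 was then at 0.645, Xaf1 at 1.18 and Slfn9 at 6.94. In ΔN-VEGF hypoxia the mean of Slfn9 was 1.14 and that of Ifi27 21.5 CPM per kilobase.

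No interferon transcript was measured in numbers that could be tested. Ifnb1 and Ifng had 0 counts in all samples and Ifna4 had 1, and a count of 0 does not show that a transcript is absent. The rest of the pathway was described with a list of 74 other interferon-system genes, of which 54 were tested. In wild-type hypoxia 15 of these were lower and 6 higher (27.8% and 11.1%, against 18.3% and 18.2% of all genes). In ΔN-VEGF hypoxia 15 were lower and 13 higher (27.8% and 24.1%), near the 26.4% and 26.9% of all genes. In ΔN-VEGF against the wild type, 3 were lower and 0 higher in normoxia (background 2.97% and 1.39%), and 6 lower and 9 higher in hypoxia (9.36% and 10.8%). Their median log2 fold change after hypoxia was -0.34 for the wild type and -0.19 for ΔN-VEGF. Without both normoxia samples numbered 2 the counts of the same 54 genes were 34 lower and 9 higher, 25 lower and 19 higher, 28 lower and 5 higher, and 11 lower and 26 higher in the same order, against 32.5% and 32.8%, 36% and 35.4%, 25.8% and 27.8%, and 28.3% and 27.5% of all genes.

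The kinase Jak1 rose in both lines after hypoxia, from 310, 295 and 313 to 775, 741 and 782 CPM in the wild type and from 319, 290 and 330 to 1180, 1160 and 1210 CPM in ΔN-VEGF. Its response was larger in ΔN-VEGF by 0.6 ± 0.11 log2 units (0.0192).

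The receptor genes moved less. Ifnar1 rose in ΔN-VEGF hypoxia (0.62 ± 0.13, 0.00238), Ifnar2 did too (0.41 ± 0.15, 0.0421), and in the wild type they changed by 0.08 ± 0.13 and -0.22 ± 0.15. Ifngr1 rose and Ifngr2 fell in both lines (0.7 ± 0.11 and -0.55 ± 0.11 in the wild type). Jak2 rose in ΔN-VEGF (0.87 ± 0.16, 0.000795), and Tyk2 had no call with all samples, and without both samples numbered 2 rose by 0.29 ± 0.07 in the wild type (0.000607) and 0.2 ± 0.07 in ΔN-VEGF (0.012). Among the nucleic acid sensing genes 5 of 10 tested were lower and 0 higher in each line after hypoxia (18.3% of all genes lower in the wild type and 26.4% in ΔN-VEGF), or 9 and 8 lower without both samples numbered 2 (32.5% and 36%), with Mb21d1, which encodes cGAS, at -1.57 ± 0.46 in the wild type (0.0204) and -2.99 ± 0.49 in ΔN-VEGF (0.000429), and at -0.61 ± 0.1 and -2.71 ± 0.11 without both samples numbered 2. Of the 28 other effectors tested, 6 were lower and 4 higher in wild-type hypoxia (18.3% and 18.2% of all genes) and 5 lower and 5 higher in ΔN-VEGF hypoxia (26.4% and 26.9%). Without both samples numbered 2 these counts were 19 lower and 5 higher, and 11 lower and 10 higher (background 32.5% and 32.8%, and 36% and 35.4%). Isg20, an RNA exonuclease gene, rose by 2.59 ± 0.18 and 3.65 ± 0.19, against the direction of most members, and Ube2l6, the enzyme that conjugates Isg15, rose by 1.09 ± 0.2 and 2.07 ± 0.21. Ly6e, a membrane protein gene, was lower in ΔN-VEGF than in wild-type normoxia (-1.66, 0.00324).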

How the data were processed

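RNA of 12 samples was sequenced as single 80-base reads from unstranded TruSeq libraries. The authors trimmed the reads with cutadapt 1.10, aligned them to the mouse genome (GRCm38.p6, Ensembl 94) with TopHat2 2.1.0 and counted them per gene with HTSeq-count 0.6.1, and they deposited raw counts, which are not normalised. The strand setting of the counting is not given in the sources used here. Here the counts were filtered with filterByExpr, scaled by TMM and fitted in edgeR 4.0.16 (R 4.3.3) with 1 mean for each of the 4 groups over all 12 samples, followed by quasi-likelihood F tests of 5 comparisons with p-values adjusted across the 14724 tested genes (Benjamini-Hochberg), and every adjusted p in the text is edgeR's unless DESeq2 is named. The scripts were tested on simulated data. The alternatives, 21 in all, included DESeq2 1.42.0, other scalings and filters and leaving out each sample, and a fit with block and 6 samples was added after seeing the data. Same-numbered samples of the lines in normoxia deviated together (r = 0.38, 0.5 and 0.36), with the numbers taken from the labels, but samples 1 and 3 correlated as much across numbers (0.35 and 0.36), and samples numbered 2 with the others at -0.46 to -0.38. Every sample's value is shown for 24 of the 30 members that had an adjusted p below 0.05 and a fold of at least 2 in any comparison, with all samples or without both normoxia samples numbered 2, taken by smallest adjusted p, and the others are given by range. Near copies were compared by coding sequence. The members, lists and tests were chosen with earlier results of these data known. One gene of the pathway list is not reported here by name.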

Additional observations from a re-analysis of the deposited data

Results flagged for a closer look

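The hypoxia responses of 2 members differed between wild-type and ΔN-VEGF cells by the interaction test of edgeR. Ifit2 fell by 0.92 log2 units in wild-type cells and by 1.84 in ΔN-VEGF cells, a difference of -0.92 ± 0.22 (adjusted p = 0.0495), and it was lower after hypoxia in 3 of 3 samples of each line. This call held in 6 of 20 other settings and was lost with a replicate block (0.061). Slfn9 changed by -0.42 in wild-type cells and by -3.03 in ΔN-VEGF cells, a difference of -2.61 ± 0.48 (adjusted p = 0.0183), which held in 14 of 20 other settings. The negative value in wild-type cells rests on normoxia replicate 2. The mean of normoxia replicates 1 and 3 lay below that of wild-type hypoxia.

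By the same test 3 of 54 other interferon-system genes rose more in ΔN-VEGF cells (5.56%, against 2.21% of all genes), and without both normoxia samples numbered 2 there were 31 with a more positive and 8 with a more negative response (background 25.8% and 27%). Jak1 rose by 1.32 and 1.92 log2 units in wild-type and ΔN-VEGF cells, a difference of 0.6 ± 0.11 (adjusted p = 0.0192). Isg20 rose by 2.59 and 3.65, a difference of 1.06 ± 0.25 (adjusted p = 0.0445). Zc3hav1, which encodes the antiviral protein ZAP, rose by 0.36 and 1.1, a difference of 0.74 ± 0.12 (adjusted p = 0.0121). How these 3 calls fared with single samples left out was not examined. The share of all genes with a more positive response in ΔN-VEGF then moved between 0.342% and 21.4%.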

How the results depend on the processing

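Counts of called members moved with the processing, and the cause was not tested. With each sample left out in turn, 5 to 25 of the 32 members tested with all samples were lower in wild-type hypoxia (12.2% to 26.9% of all genes). In the same comparison 0 were higher (14.6% to 27.1%). In ΔN-VEGF hypoxia 4 to 14 were lower (20.4% to 34.3%) and 2 to 7 higher (22.5% to 32.8%). Between the lines in normoxia 0 to 22 were lower (0.726% to 23.2%) and 0 to 2 higher (0.376% to 25.7%). Between the lines in hypoxia 2 to 6 were lower (4.49% to 21.2%) and 3 to 11 higher (5.44% to 21.2%). For the difference of the responses 0 to 2 were lower (0.151% to 23%) and 0 to 21 higher (0.342% to 21.4%). These fits mostly tested 35 members. With Ifit3b, Gbp7 and Slfn8 added, the highest lower counts were 28, 15 and 25 in wild-type hypoxia, in ΔN-VEGF hypoxia and between the lines in normoxia. The highest count for the difference was then 22 higher. Without both normoxia samples numbered 2 the lower counts were 29, 15, 26, 7 and 2 and the higher counts 0, 8, 3, 15 and 24 in that order. Here too 35 members were tested. Over the same 32 the lower counts were 26, 14, 23, 7 and 2 (32.5%, 36%, 25.8%, 28.3% and 27% of all genes). The higher counts were 0, 8, 3, 15 and 22 (32.8%, 35.4%, 27.8%, 27.5% and 25.8%). Without both, Parp9 in wild-type hypoxia turned from 0.01 to -0.329 (adjusted p = 0.00667). DESeq2 called 1 member higher between the lines in normoxia (3.14% of all genes) and 4 for the difference of the responses (7.39%). RLE factors, and a fold of at least 2, each left 1 lower for that difference (1.09% and 0.672% of all genes). Total counts moved the median of all genes by more than 0.1 in wild-type hypoxia (to -0.3), ΔN-VEGF hypoxia (-0.41), between the lines in hypoxia (-0.23) and for the difference (-0.15). That scaling gave 2 members higher in ΔN-VEGF hypoxia (15.3% of all genes). Between the lines it gave 1 lower in normoxia (2.61%) and 2 higher in hypoxia (4.57%). No filter gave 1 higher and 1 lower between the lines in normoxia (0.742% and 1.08% of all genes) and 2 lower in hypoxia (3.89%). At least 10 counts in every sample, which tested 22 members, left 8 lower in wild-type hypoxia (20.5% of all genes), 5 in ΔN-VEGF hypoxia (28.8%) and 2 between the lines in hypoxia (10.2%). The 6 samples of a comparison alone gave 5 of 30 tested members lower in wild-type hypoxia (11.1% of all genes). Between the lines they gave 0 of 30 lower in normoxia (0.0574%) and 15 of 29 higher in hypoxia (27.9%).

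The replicate numbers gave same-number correlations of -0.02 to 0.11 outside the normoxia comparison. A replicate block gave 1 higher between the lines in normoxia (1.55% of all genes), and 1 higher and 1 lower for the difference of the responses (2.15% and 1.13%). Besides these and the normoxia values given above, the block ended the calls of Stat2 in wild-type hypoxia (adjusted p = 0.065) and of Ifi47 between the lines in hypoxia (0.059). The replicate block on 6 samples, chosen after seeing the data, gave 2 of 30 tested members lower in wild-type hypoxia (5.09% of all genes). It gave 7 of 29 higher in ΔN-VEGF hypoxia (31.6%). Between the lines it gave 0 of 30 lower in normoxia (0%) and 15 of 29 higher in hypoxia (30%).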
